A study of Homo sapiens with 24 samples.

Results

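The nuclear respiratory chain subunits examined here are 59 protein-coding genes whose products form complexes I to IV of the mitochondrial electron transport chain. They were taken from a fixed list by gene symbol, and no measured value entered the rule that picked them. The list itself was set with earlier results of these data known. Of the 59 genes, 36 encode subunits of complex I, 4 of complex II, 9 of complex III and 10 of complex IV. All 59 were found among the 60675 genes of the count tables. RNA-seq was performed on 24 libraries from 2 human prostate cancer cell lines, LNCaP:C4-2 and 22Rv1, with 3 libraries in each of 8 groups. LNCaP:C4-2 is a castrate-resistant derivative of LNCaP that the labels call enzalutamide sensitive, and 22Rv1 is enzalutamide resistant. In each line, cells received either a control siRNA pool (siSCR) or a pool against METTL3 (siMETTL3), and either vehicle (ethanol) or 1 nM of the synthetic androgen R1881. The 4 groups of each line were therefore siSCR vehicle, siSCR R1881, siMETTL3 vehicle and siMETTL3 R1881. All groups shared a transfection, a second transfection 48 h later, and then 72 h of treatment in phenol red-free medium with charcoal-stripped serum, so the controls were androgen-depleted and transfected too. Each line is a single established culture, and the labels do not say whether the 3 libraries of a group came from separate cultures. The p-values therefore measure the spread between these libraries.

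The respiratory chain sits in the inner mitochondrial membrane. Complex I (NADH dehydrogenase) and complex II (succinate dehydrogenase) pass electrons to ubiquinone, complex III passes them on to cytochrome c, and complex IV (cytochrome c oxidase) passes them to oxygen. Complexes I, III and IV pump protons as they do so, and ATP synthase uses the resulting gradient. Nearly all subunits are encoded in the nucleus and imported, while a small catalytic core of complexes I, III and IV and part of ATP synthase are encoded by mitochondrial DNA, so that assembly needs the products of both genomes. NRF1, GABP and YY1 are transcription factors long known to bind promoters of nuclear respiratory genes. METTL3 is the catalytic subunit of the complex that places N6-methyladenosine on mRNA.

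Sequences just upstream of the subunit genes are shown because the shared promoter letters are a property that the choice of genes did not use. RefSeq windows of 300 bases (250 before the start site and 50 after it, GRCh38.p14) were found for 51 of the 59 genes, and 8 genes had none in the table. Of the 51 genes, 5 had several windows. A gene was counted if any of its windows matched, whereas the share over all windows counts each window, so the 2 shares are not quite alike. The NRF1 core GCGCATGCG, searched on both strands, was present in 7 of the 51 genes (13.7%) and in 1.92% of all 35116 windows. The ETS core CCGGAAGT, to which GABP binds, was present in 8 genes (15.7%) and in 4.14% of all windows. The YY1 core AAGATGGCG was also present in 8 genes (15.7%), against 1.75% of all windows. At least 1 of the 3 letter runs was found in 21 genes (41.2%), against 7.33% of all windows. These matches describe the letters only. A gene without a match lacks these exact letters in this window and no more. The 8 YY1 matches are printed with the bases around them, in the direction of the gene, with the matched core in capitals.
NDUFA6, chr22:42090728-42090757, minus strand: atgctttggcAAGATGGCGgggagcggcgt
NDUFA7, chr19:8321342-8321371, minus strand: tcgcggacggAAGATGGCGtccgccacccg
NDUFA9, chr12:4649114-4649143, plus strand: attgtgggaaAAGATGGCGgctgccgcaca
NDUFB8, chr10:100529835-100529864, minus strand: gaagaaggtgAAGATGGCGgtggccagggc
NDUFS4, chr5:53560650-53560679, plus strand: tgcctgcagcAAGATGGCGgcggtgtcaat
NDUFS7, chr19:1383914-1383943, plus strand: ggccgaggccAAGATGGCGgtgctgtcagg
SDHB, chr1:17054003-17054032, minus strand: gtcaggagccAAGATGGCGgcggtggtcgc
UQCRC1, chr3:48609604-48609633, minus strand: ctgcagctggAAGATGGCGgcgtccgtggt

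All 8 cores lay downstream of the start site and on the strand of the gene, between positions 11 (NDUFA9 and SDHB) and 26 (NDUFA6). Over all windows, 332 of 628 YY1 matches (52.9%) lay downstream on the strand of the gene.

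The 250 bases upstream of 4 further genes are printed. They were picked among the genes with an NRF1 or ETS core in their window, and they also carried differences described below. A core in all 4 therefore follows from the choice. NDUFA1, with the largest difference between siMETTL3 and siSCR with R1881 in 22Rv1, is not among the 4. NDUFB4 and UQCR11 responded differently to R1881 in the 2 lines, and COX6A1 and COX8A were among the genes with the largest differences between siMETTL3 and siSCR. Capitals mark the NRF1 core in NDUFB4 and COX6A1 and the ETS core in UQCR11 and COX8A, in either orientation.
NDUFB4, chr3:120596086-120596335, plus strand: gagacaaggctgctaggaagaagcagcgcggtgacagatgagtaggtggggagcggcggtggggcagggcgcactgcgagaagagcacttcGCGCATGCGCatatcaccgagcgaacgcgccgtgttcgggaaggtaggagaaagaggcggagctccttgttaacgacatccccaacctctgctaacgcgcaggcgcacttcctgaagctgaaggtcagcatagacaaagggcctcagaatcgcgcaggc
COX6A1, chr12:120437863-120438112, plus strand: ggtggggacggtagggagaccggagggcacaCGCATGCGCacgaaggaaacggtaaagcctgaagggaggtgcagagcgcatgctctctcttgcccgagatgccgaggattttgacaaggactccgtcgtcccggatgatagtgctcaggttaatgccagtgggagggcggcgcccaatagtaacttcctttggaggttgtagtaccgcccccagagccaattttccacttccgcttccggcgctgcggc
UQCR11, chr19:1605463-1605712, minus strand: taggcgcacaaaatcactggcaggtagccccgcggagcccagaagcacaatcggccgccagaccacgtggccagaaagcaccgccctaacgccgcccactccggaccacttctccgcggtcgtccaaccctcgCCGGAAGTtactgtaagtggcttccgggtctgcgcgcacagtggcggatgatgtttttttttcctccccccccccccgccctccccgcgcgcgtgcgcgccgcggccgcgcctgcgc
COX8A, chr11:63974370-63974619, plus strand: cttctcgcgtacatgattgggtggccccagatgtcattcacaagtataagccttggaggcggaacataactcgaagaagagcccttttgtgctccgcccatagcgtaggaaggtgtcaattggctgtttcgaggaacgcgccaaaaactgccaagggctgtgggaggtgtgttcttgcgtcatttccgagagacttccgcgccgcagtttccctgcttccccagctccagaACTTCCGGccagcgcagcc

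In NDUFB4 the NRF1 core occurred on both strands in 10 overlapping bases, with its first base at position -159 from the start site. In COX6A1 it lay at -219. The ETS core lay at -117 in UQCR11 and at -19 in COX8A.

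The knockdown was checked first. METTL3 in LNCaP:C4-2 was 31.2, 28.6 and 26.5 CPM (counts scaled to a common library size, with the trimmed mean of M values as the scaling) with siSCR and vehicle, and 19.9, 19.8 and 17.5 with siMETTL3. In 22Rv1 the corresponding values were 46.6, 45.5 and 46.8 with siSCR and 25.3, 24.1 and 25.4 with siMETTL3. The groups did not overlap in either line or under either treatment. With siMETTL3, METTL3 mRNA was 66.2% (vehicle) and 67.2% (R1881) of siSCR in LNCaP:C4-2, and 53.9% and 44.5% in 22Rv1. The log2 fold changes were -0.61 (adjusted p = 0.0127, edgeR quasi-likelihood test), -0.57 (0.0256), -0.89 (1.48e-06) and -1.18 (1.29e-08). An exact two-sided permutation test gave p = 0.1 in each case, the smallest value that 3 libraries against 3 allow. Library totals ranged from 15716224 to 21306019 counts. The luminal prostate markers HOXB13, KRT8, KRT18, EPCAM and FOLH1 were detected in every library. Of the markers of other cell types, COL1A1 was at 38.5 to 71.9 CPM in LNCaP:C4-2 and 15.1 to 29.1 CPM in 22Rv1, while COL1A2 and DCN, the other fibroblast markers, were at most 0.278 CPM. VWF, an endothelial marker, reached 12.3 CPM in LNCaP:C4-2, while PECAM1 and CDH5 were at most 0.230 CPM. The basal and immune markers were at most 1.62 CPM. In bulk RNA, fewer cells of one kind and less RNA per cell cannot be told apart.

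Libraries of one group differed in how their counts depended on the GC content of genes. This slope is given as the log2 deviation from the mean of the line per 10 percentage points of GC. In 5 of the 8 groups, libraries lay on both sides of 0. Those below 0 in these groups are called the libraries that stand apart: 6 in all, namely LNCaP:C4-2 siSCR vehicle replicate 3, siSCR R1881 replicates 2 and 3 and siMETTL3 vehicle replicate 1, and 22Rv1 siSCR vehicle replicate 3 and siMETTL3 vehicle replicate 1. Within all 5 groups, 25 of the 59 subunit genes were lower in every library below 0 than in every library above 0, and 2 (NDUFC2 and NDUFS1) were higher. Over the 19437 genes tested in both lines, 11.7% showed the first order and 11.7% the second. In 22Rv1 the 3 siSCR R1881 libraries all had slopes between -0.18 and -0.10, and the 3 siMETTL3 R1881 libraries between 0.02 and 0.11, so library composition and knockdown cannot be told apart in that comparison. Counts of subunit genes called are therefore given also without the 6 libraries. The shares of all genes are those of the standard edgeR fit (all libraries, no offset). They are not the background for counts from other fits, which have no share beside them unless stated. The plot of GC slope shows all 24 libraries.

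**Figure D1:**
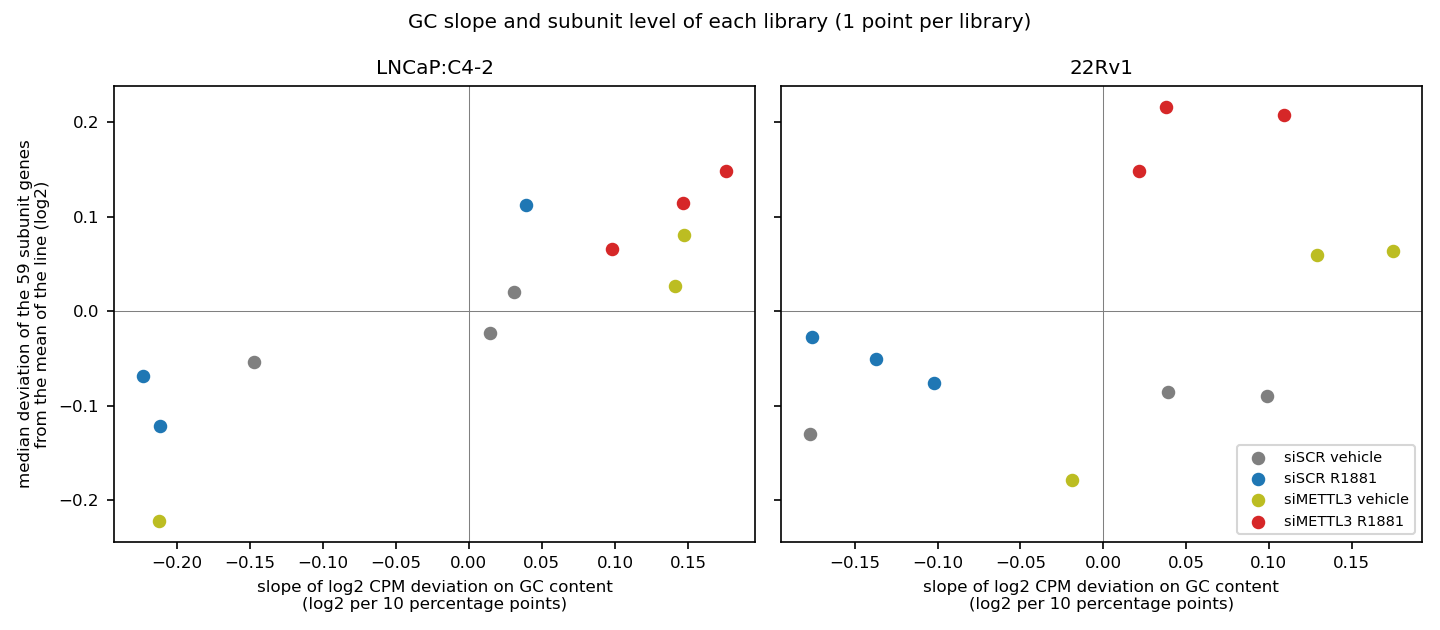
Median log2 deviation of the 59 subunit genes from the mean of their cell line (y axis) against the slope of the log2 CPM deviation on GC content, per 10 percentage points (x axis), with 1 point per library and 1 panel per line. In 22Rv1 the siMETTL3 R1881 libraries lie highest (medians of 0.15 to 0.22), and the siMETTL3 vehicle library with a slope of -0.02 lies lowest (-0.18).

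The subunit genes were abundantly but unequally transcribed. Together they took 0.621% to 0.780% of all counts in LNCaP:C4-2 and 0.544% to 0.697% in 22Rv1. To compare genes with each other, levels were divided by exon length (CPM per kb). This length joins all annotated exons of a gene, so it can exceed the length of the mRNA and lower the level. In complex I, the accessory subunit gene NDUFS5 was the highest, at 343 ± 19.6 CPM per kb in LNCaP:C4-2 and 146 ± 22.6 in 22Rv1 (SD over the 12 libraries of the line). Its libraries ranged from 306 to 367 and from 118 to 181 CPM per kb. NDUFA7 was the lowest, at 0.619 ± 0.155 and 0.738 ± 0.156 CPM per kb (0.352 to 0.822 and 0.510 to 1.004). NDUFA7 shares 33.5% of its exon bases with neighbouring genes on both strands, and the counting dropped fragments that lay on more than 1 gene, so its level is uncertain. NDUFV2, which encodes an iron-sulfur core subunit, was at 1.37 ± 0.375 and 0.821 ± 0.186 CPM per kb, and it shares 28.4% of its exon bases. In complex II, SDHD (membrane anchor) led in LNCaP:C4-2 at 41.6 ± 1.40 CPM per kb (39.7 to 43.7), and SDHB (iron-sulfur subunit) led in 22Rv1 at 32.7 ± 3.38 (28.3 to 37.8). SDHC, the other membrane anchor, was the lowest of complex II per kb in both lines at 13.9 ± 0.737 and 12.7 ± 0.599 CPM per kb (13 to 15.5 and 12.1 to 13.9). Its joined exons hold 14160 bases, and the order differed without the division by length. In mean CPM, SDHC was the highest of complex II in 22Rv1 (181, with SDHA at 140). In LNCaP:C4-2 it was at 197, below SDHA (294) alone. In complex III, UQCRH (hinge protein) reached 183 ± 41.3 CPM per kb in LNCaP:C4-2 (115 to 232) and 121 ± 29.8 in 22Rv1 (81.9 to 164). CYC1 (cytochrome c1) followed at 160 ± 23.4 and 121 ± 22 CPM per kb, within the spread of UQCRH. UQCR11 was the lowest of complex III at 13.9 ± 1.25 and 14.9 ± 2.50 CPM per kb (12.4 to 15.8 and 11.3 to 19.3). In complex IV, COX8A and COX7C headed the order in both lines, with COX8A at 249 ± 79.9 and 170 ± 64.9 CPM per kb and COX7C at 207 ± 13.3 and 174 ± 20.4. COX8A was the more variable, from 144 to 357 and from 100.4 to 268 CPM per kb over the libraries, against 189 to 235 and 141 to 201 for COX7C. These 2 neighbours did not differ beyond their spread. COX7B was the lowest of complex IV at 43.4 ± 5.03 and 32.1 ± 5.39 CPM per kb (35.9 to 51.4 and 24.1 to 40.3).

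**Figure D2:**
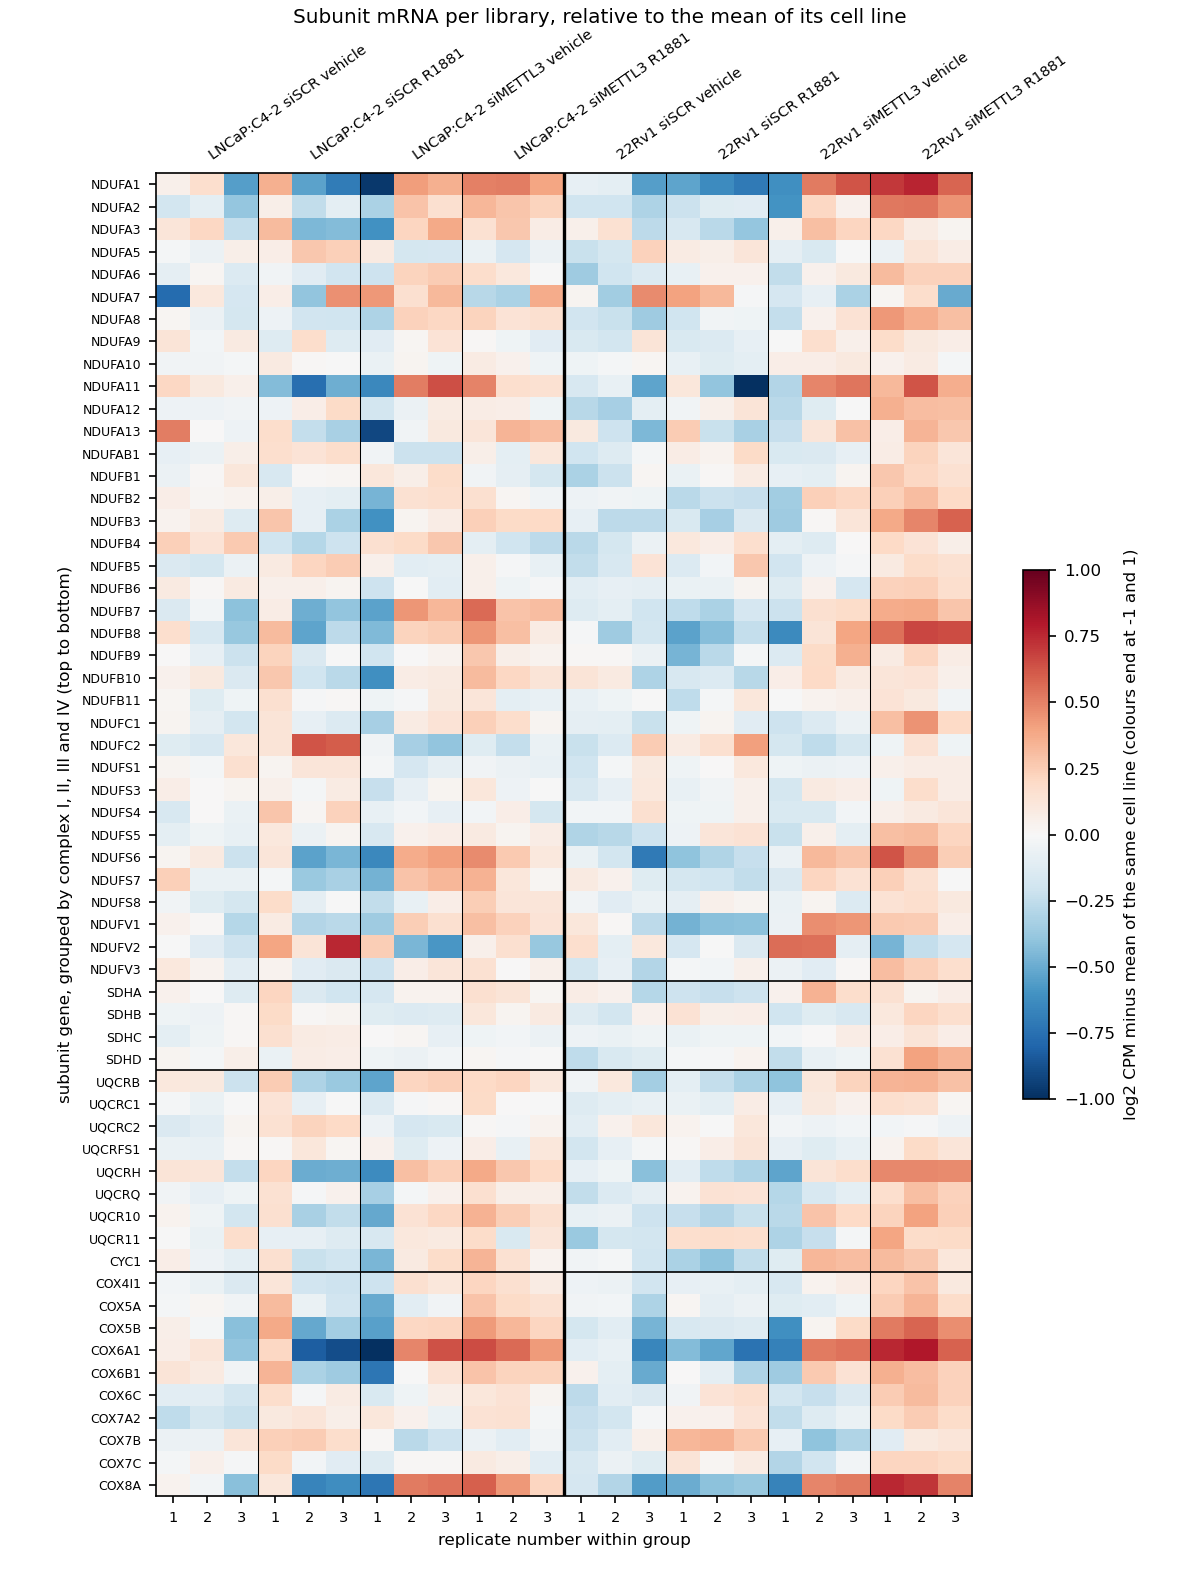
Log2 CPM of each of the 59 subunit genes (rows, grouped by complex I to IV from top to bottom) in each of the 24 libraries (columns, by group and replicate), as the deviation from the mean of the gene in its cell line. In the 22Rv1 siMETTL3 R1881 libraries, 52 to 57 of the 59 genes lie above the line mean, and in LNCaP:C4-2 siMETTL3 vehicle replicate 1 only 8 do.

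R1881 in LNCaP:C4-2 with siSCR changed few subunit genes, and the clearest of them was NDUFB4, an accessory subunit of complex I (chromosome 3, 120596309 to 120602500, plus strand, GRCh38). NDUFB4 was at 366, 339.9 and 371 CPM with vehicle and at 269, 254 and 268 CPM with R1881. Every R1881 library was below every vehicle library. The log2 fold change was -0.45 (SE 0.08, adjusted p = 0.000595, edgeR over all 16435 genes tested). NDUFB4 has 12 named copies elsewhere in the genome, and reads shared with them may have been split or lost. In all, 4 of 59 genes rose against 12.7% of all genes tested, and 1 of 59 fell against 12.1%. No gene also passed a fold change of 1.5, against 15.1% of all genes. The 4 were NDUFC2 (accessory, complex I; log2 fold change 0.52), NDUFB5 (accessory, complex I; 0.31), COX7A2 (complex IV; 0.30) and UQCRC2 (core protein of complex III; 0.25). NDUFB5 was at 94.1, 91.8 and 99.8 CPM with vehicle and at 111, 121 and 124 CPM with R1881. UQCRC2 was at 326, 335 and 366 CPM and at 399.8, 419 and 413 CPM. In both, every R1881 library was above every vehicle library. NDUFC2 was at 19, 18.5 and 22.3 CPM with vehicle and at 22.6, 31.9 and 31.4 CPM with R1881. The 2 higher R1881 libraries are those that stand apart, and NDUFC2 was one of the 2 genes that were higher in such libraries within every mixed group. Without the 6 libraries its log2 fold change was 0.24 (adjusted p = 0.21, edgeR) and that of NDUFB5 was 0.23 (0.0594), whereas NDUFB4 (-0.41, adjusted p = 0.00241), COX7A2 (0.29, 0.0298) and UQCRC2 (0.25, 0.0248) were still called. In that fit 7 genes rose and 2 fell, with 1 siSCR R1881 library left, which is assumed to vary like the other groups. Leaving out 1 library at a time, the count of 5 dropped to 1 or 2 without vehicle replicate 1 or 2 or without R1881 replicate 2 or 3, and NDUFB4 was called each time. The median log2 fold change of the 59 genes was -0.01, beside -0.03 over all genes.

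With siMETTL3 in LNCaP:C4-2, NDUFB4 fell with R1881 again. It was at 347, 353 and 374 CPM with vehicle and at 290.3, 269 and 259 CPM with R1881. These groups did not overlap either, and the log2 fold change was -0.38 (SE 0.08, adjusted p = 0.00324, edgeR). COX5A, a nuclear subunit of complex IV, was the single gene that rose, at 158, 208 and 218 CPM with vehicle and 273, 256 and 249 CPM with R1881. Its log2 fold change was 0.43 (SE 0.13, adjusted p = 0.034, edgeR), and 0.29 (0.00249) without the libraries that stand apart, of which the lowest vehicle library is one. Thus 1 of 59 rose against 8.51% of all genes, 1 fell against 8.09%, and none passed the fold change of 1.5 against 10.6%. In all, 52 of 59 log2 fold changes were positive, with a median of 0.12 beside -0.003 over all genes. Without the 6 libraries, 5 genes rose, 1 fell, and the median was 0.05. COX5A was also lost when vehicle replicate 1 or any 1 of the R1881 libraries was left out, so 1 gene, NDUFB4, was then called.

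In siSCR cells of 22Rv1, R1881 gave 9 subunit genes higher (15.3%), near the share over all genes (16.6%), and 1 lower. The balance of higher and lower genes changed with the libraries used, as given below. UQCR11, an accessory subunit of complex III (chromosome 19, 1597172 to 1605490, minus strand, GRCh38), was at 24.4, 28 and 27.9 CPM with vehicle and at 35.5, 35.7 and 35.5 CPM with R1881. COX7B, an accessory subunit of complex IV encoded on the X chromosome, was at 82.7, 89.2 and 99.4 CPM and at 121, 122 and 115 CPM. In both genes every R1881 library was above every vehicle library. The log2 fold changes were 0.41 (SE 0.09, adjusted p = 0.00213, edgeR over 17865 genes) for UQCR11 and 0.39 (SE 0.09, adjusted p = 0.00127) for COX7B. NDUFS5 (0.33), NDUFA12 (0.27), NDUFB4 (0.27), UQCRQ (0.26), COX6C (0.25), NDUFAB1 (0.22) and COX7A2 (0.21) rose as well. NDUFS5 was at 64.4, 65.3 and 68.9 CPM with vehicle and at 76.7, 86.4 and 87.7 CPM with R1881, and NDUFA12, an accessory subunit of complex I, at 35.3, 33.9 and 39.9 CPM and at 41.6, 44.2 and 46.6 CPM, again with no overlap. Some of these calls depended on the fit. NDUFA12 was called in 2 of the 6 fits that left out 1 library (adjusted p up to 0.102, edgeR) and was lost with library totals alone. NDUFAB1 was lost with library totals alone, with no filter and with only the libraries compared. NDUFB4, which fell in LNCaP:C4-2, was at 84.6, 90.5 and 98.1 CPM with vehicle and at 109.7, 107 and 115 CPM with R1881 in 22Rv1 (adjusted p = 0.0069, edgeR). NDUFV1, the flavoprotein core subunit of complex I that binds NADH, was the single gene that fell, from 162, 152 and 126 CPM to 109, 113 and 113 CPM. Its log2 fold change was -0.40 (SE 0.11, adjusted p = 0.0093, edgeR). NDUFV1 was also lower within every mixed group in the libraries below 0 on the GC slope, and the 3 R1881 libraries of this comparison all lay below 0. With an offset for GC content in the fit, its log2 fold change was -0.26 (adjusted p = 0.00743, edgeR), and without vehicle replicate 1 it was -0.32 (0.0528). In total 9 of 59 rose (16.6% of all genes), 1 fell (16.5%), and none passed the fold change of 1.5 (13.8%). The median log2 fold change was 0.05, beside 0.0021 over all genes. Without the libraries that stand apart, 18 rose and 14 fell, and UQCR11 (0.43), COX7B (0.46) and NDUFB4 (0.32) were still called. Leaving out vehicle replicate 3 alone gave 16 higher and 8 lower, and leaving out vehicle replicate 1 gave 4 higher and 0 lower. In the fits without vehicle replicate 3, the vehicle libraries left had GC slopes of 0.10 and 0.04, and the R1881 libraries -0.18 to -0.10. Treatment and GC slope therefore cannot be told apart in those fits, also for the genes that stayed called.

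With siMETTL3 in 22Rv1, R1881 raised subunit genes of all 4 complexes. COX5B, a nuclear subunit of complex IV, was at 91.4, 142 and 159.9 CPM with vehicle and at 201, 209 and 193 CPM with R1881. NDUFB3, an accessory subunit of complex I, was at 22, 28.5 and 30.6 CPM and at 36.7, 39.4 and 42.3 CPM. UQCRH of complex III was at 115, 182 and 188 CPM and at 231, 231 and 230.1 CPM. In each of these 3 genes the R1881 libraries lay above all vehicle libraries, and vehicle replicate 1, which stands apart, was the lowest. The log2 fold changes were 0.59 (SE 0.13, adjusted p = 0.00149, edgeR) for COX5B, 0.52 (SE 0.11, adjusted p = 0.000842) for NDUFB3 and 0.49 (SE 0.13, adjusted p = 0.00553) for UQCRH. NDUFB8 (0.57) and NDUFA2 (0.55), accessory subunits of complex I, belonged to the 5 largest. NDUFB8 was at 3.31, 5.63 and 6.78 CPM with vehicle and at 7.55, 8.19 and 8.09 CPM with R1881, and NDUFA2 at 15.8, 27.6 and 24.6 CPM and at 34.5, 34.7 and 32.7 CPM. Vehicle replicate 1 was the lowest in both of these genes as well. NDUFB8 shares 48.5% of its exon bases with genes on both strands, and fragments on more than 1 gene were dropped, so its level is uncertain. NDUFV2 was the single gene that fell, from 3.21, 3.19 and 2.05 CPM to 1.58, 1.85 and 1.94 CPM, at a low level (log2 fold change -0.68, SE 0.22, adjusted p = 0.0235, edgeR). By complex, 13 of 36 genes of complex I, 2 of 4 of complex II, 4 of 9 of complex III and 6 of 10 of complex IV rose. That made 25 of 59 against 16.8% of all genes, 1 lower against 16.3%, and 2 past the fold change of 1.5 (COX5B and NDUFV2) against 13.5%. The median log2 fold change was 0.24, beside 0.0035 over all genes, and 51 of 59 were positive. Without the libraries that stand apart, 26 rose and 2 fell, the median was 0.15, COX5B was at 0.38, NDUFB3 at 0.39, NDUFA2 at 0.35 and UQCRH at 0.29, all still called. NDUFB8 (0.34, adjusted p = 0.0842, edgeR) and NDUFV2 (-0.59, adjusted p = 0.0689, edgeR) were no longer called. Without R1881 replicate 2, 17 rose and 0 fell.

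**Figure D3:**
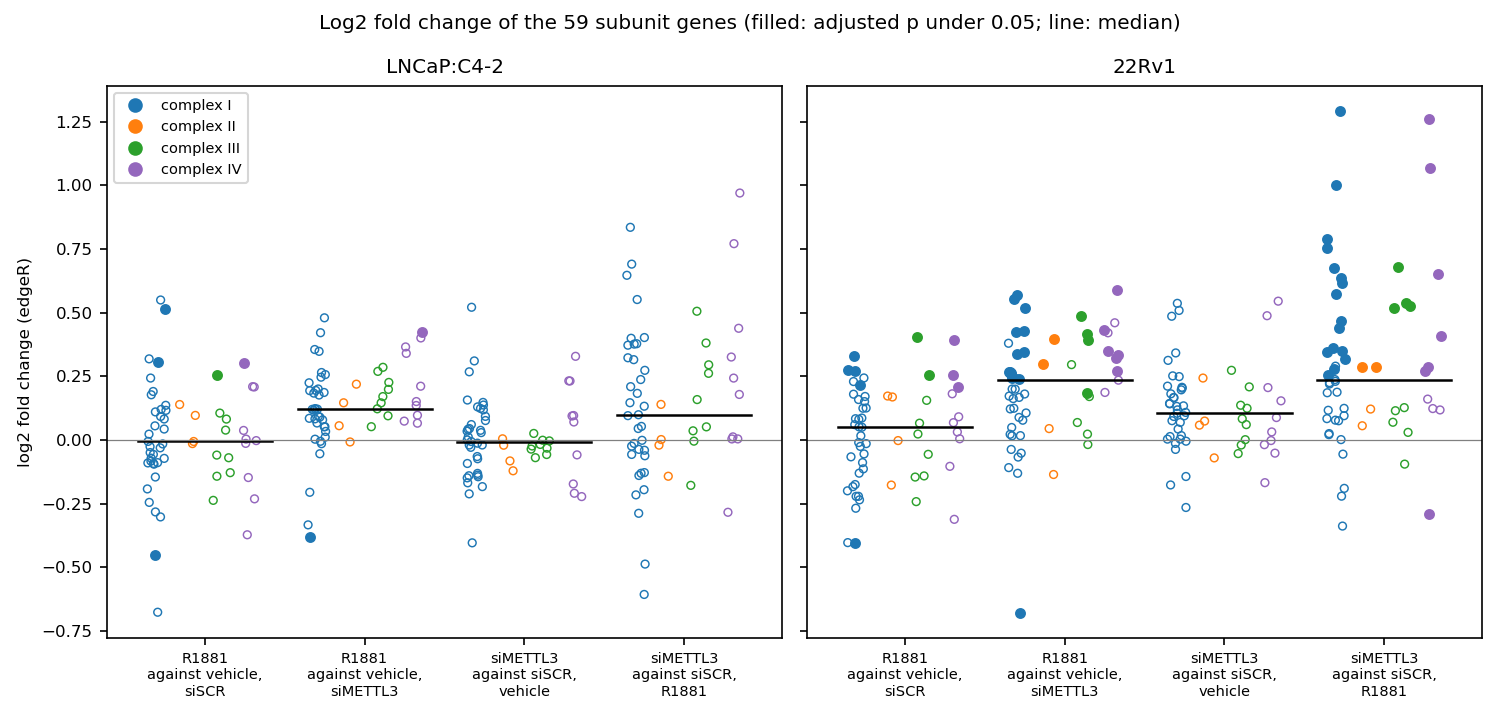
Log2 fold change (edgeR, y axis) of the 59 subunit genes in the 4 comparisons within each cell line (x axis, 1 panel per line), with filled points for genes at an adjusted p under 0.05 and a line at the median. The 22Rv1 panel holds 25 higher genes for R1881 with siMETTL3 and 28 for siMETTL3 with R1881, and the LNCaP:C4-2 panel never more than 4.

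Knockdown of METTL3 without androgen left no subunit gene called in either line. In LNCaP:C4-2 with vehicle, 0 of 59 rose (1.05% of all genes) and 0 fell (0.511%), with 0 past the fold change of 1.5 (1.2%). At an unadjusted p under 0.05 edgeR gave 1 higher and 0 lower, beside 1463 and 1173 of all 16435 genes. DESeq2 called 0, beside 2.74% of all genes higher and 1.65% lower. In 22Rv1 with vehicle, 0 rose (0.174%), 0 fell (0.386%) and 0 passed the fold change of 1.5 (0.202%). Here 11 genes were higher and 0 lower at an unadjusted p under 0.05, beside 1278 and 1326 of all 17865 genes. DESeq2 called 1 higher, beside 0.754% of all genes higher and 0.982% lower. Without the libraries that stand apart, 4 genes were called higher in LNCaP:C4-2 and 17 in 22Rv1, and none lower. Leaving out siMETTL3 vehicle replicate 1 alone gave 2 higher in LNCaP:C4-2 and 16 in 22Rv1, and leaving out siSCR vehicle replicate 1 gave 1 in 22Rv1. COX8A may serve as an example. This accessory subunit of complex IV was at 71.7, 65.9 and 54.9 CPM with siSCR and at 50.9, 113 and 116 CPM with siMETTL3 in 22Rv1 with vehicle. The 2 higher siMETTL3 libraries lay above all siSCR libraries, and the third, which stands apart, lay below them.

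With R1881, knockdown of METTL3 in LNCaP:C4-2 gave 0 of 59 higher (0.353% of all genes), 0 lower (0.584%) and 0 past the fold change of 1.5 (0.7%). At an unadjusted p under 0.05, 13 genes were higher and 6 lower, beside 2543 and 2159 of all 16435 genes. DESeq2 called 2 higher (5.67% of all genes) and 3 lower (5.63%). COX6A1, for example, was at 82.9, 40.6 and 38.9 CPM with siSCR and at 113, 107 and 96.6 CPM with siMETTL3. Its groups did not overlap, with a log2 fold change of 0.97 (SE 0.34, adjusted p = 0.0976, edgeR), but the siSCR library that does not stand apart lay near the siMETTL3 libraries and far from the other siSCR libraries. Without the 6 libraries no gene was called and the median log2 fold change was -0.02, whereas without siSCR R1881 replicate 1 alone 12 rose and 2 fell.

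In 22Rv1 with R1881, the same comparison gave 29 subunit genes, beside 26 for R1881 in siMETTL3 cells. With the length offset these counts were 26 and 30, and with no filter 30 and 29, so their order depended on the fit. NDUFA1, an accessory subunit of complex I (chromosome X, 119871487 to 119876662, plus strand, GRCh38), was at 26.6, 24.8 and 23.6 CPM with siSCR and at 62.8, 65.3 and 57.4 CPM with siMETTL3. COX6A1 of complex IV (chromosome 12, 120438090 to 120440742, plus strand) was at 60.2, 56.8 and 48.9 CPM and at 137, 142 and 123 CPM. COX8A (chromosome 11, 63974607 to 63976543, plus strand) was at 57.2, 60.8 and 62.1 CPM and at 136, 133 and 114 CPM. In these 3 genes each siMETTL3 library was well above all siSCR libraries. However, all 3 were also lower in the libraries below 0 on the GC slope within each of the 5 mixed groups. The siSCR R1881 libraries all lay below 0, and the siMETTL3 R1881 libraries above it. In 22Rv1 siMETTL3 vehicle, NDUFA1 was at 25.1 CPM in the library that stands apart and at 55.2 and 59.3 CPM in the others. The log2 fold changes were 1.29 (SE 0.20, adjusted p = 0.000714, edgeR) for NDUFA1, 1.26 (SE 0.20, adjusted p = 0.00104) for COX6A1 and 1.07 (SE 0.19, adjusted p = 0.00164) for COX8A. NDUFA1 shares 44.5% of its exon bases with RNF113A on the opposite strand, COX8A shares 34.5% with an unnamed gene on its own strand, and COX6A1 has 7 named copies.

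NDUFB8, an accessory subunit of complex I, was at 3.55, 3.84 and 4.36 CPM with siSCR and at 7.55, 8.19 and 8.09 CPM with siMETTL3 (log2 fold change 1.00, SE 0.20, adjusted p = 0.00298, edgeR). These low values leave out fragments on the 48.5% of its exon bases that NDUFB8 shares with other genes. NDUFA11, another accessory subunit, was at 8.40, 5.90 and 3.88 CPM and at 9.75, 12 and 9.98 CPM (0.79, SE 0.22, adjusted p = 0.0204). In both genes the groups did not overlap, although the siSCR values of NDUFA11 were widely spread. NDUFA11 was called in 2 of the 6 fits that left out 1 library, with log2 fold changes of 0.55 to 1.10 and adjusted p up to 0.123 (edgeR). The core subunit gene NDUFV1 rose by 0.61 (adjusted p = 0.00232, edgeR), from 109, 113 and 113 CPM to 180.1, 179 and 157 CPM. In complex II, SDHA (flavoprotein, 0.29) and SDHD (0.29) rose. In complex III, UQCRH (0.68), CYC1 (0.54), UQCRB (0.53) and UQCR10 (0.52) rose, and in complex IV the further genes were COX5B (0.65), COX6B1 (0.41), COX5A (0.29) and COX4I1 (0.27). COX7B was the single gene that fell, from 121, 122 and 115 CPM to 88.4, 103 and 104 CPM (log2 fold change -0.29, SE 0.09, adjusted p = 0.0262, edgeR). It was the gene that R1881 had raised most among those of complex IV in siSCR cells, but both comparisons use the same siSCR R1881 libraries, all below 0 on the GC slope. Within the 5 mixed groups, COX7B was higher in the libraries below 0 in 4 and lower in 0. Its fall was called in 1 of the 6 fits that left out 1 library (adjusted p up to 0.169, edgeR).

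In total 28 of 59 rose against 8.93% of all genes, 1 fell against 7.28%, and 11 passed the fold change of 1.5 against 3.29%. By complex, 16 of 36, 2 of 4, 4 of 9 and 6 of 10 rose. The median log2 fold change was 0.24, beside -0.02 over all genes, and 53 of 59 were positive. Of the 28 genes, 24 belonged to the 25 that were lower in the low-slope libraries within every mixed group, and 1 of those 25 was not called. An offset for GC content in the fit, which removes the part of each count that follows GC alone, gave 38 genes higher and 0 lower, with NDUFA1 at 1.196, COX6A1 at 1.34, COX8A at 0.87, NDUFB8 at 0.95 and NDUFA11 at 0.54, all called, and COX7B at -0.15 (adjusted p = 0.0776, edgeR). That fit did not call NDUFA3, NDUFB10, NDUFS7, COX6B1 and COX7B of the 29. An offset for gene length gave 25 higher and 1 lower with 46 of 59 positive, and there NDUFA3, NDUFA12, NDUFB9, NDUFB10, SDHD, COX5A and COX6B1 were not called. With both offsets 35 rose and 1 fell, and with only the libraries compared 42 rose and 1 fell. None of the 6 libraries that stand apart belongs to either group, but leaving them out changed the estimate of spread and the genes tested (18173 in place of 17865), and then 37 rose and 1 fell. Leaving out a library of either group in turn gave 16 to 23 genes called in place of 29, with 17 without siSCR replicate 2 or 3, 18 without siMETTL3 replicate 1 and 16 without siMETTL3 replicate 2, all of them higher. The groups also differed in other properties of the libraries. The slope of the counts on gene length, per doubling of length, was 0.01 to 0.04 in the siSCR R1881 libraries and -0.08 to -0.06 in the siMETTL3 R1881 libraries, and the share of counts on mitochondrially encoded genes was 4.96% to 5.28% and 3.93% to 4.24%. Beyond the offset fits, their part in the result was not tested.

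**Figure D4:**
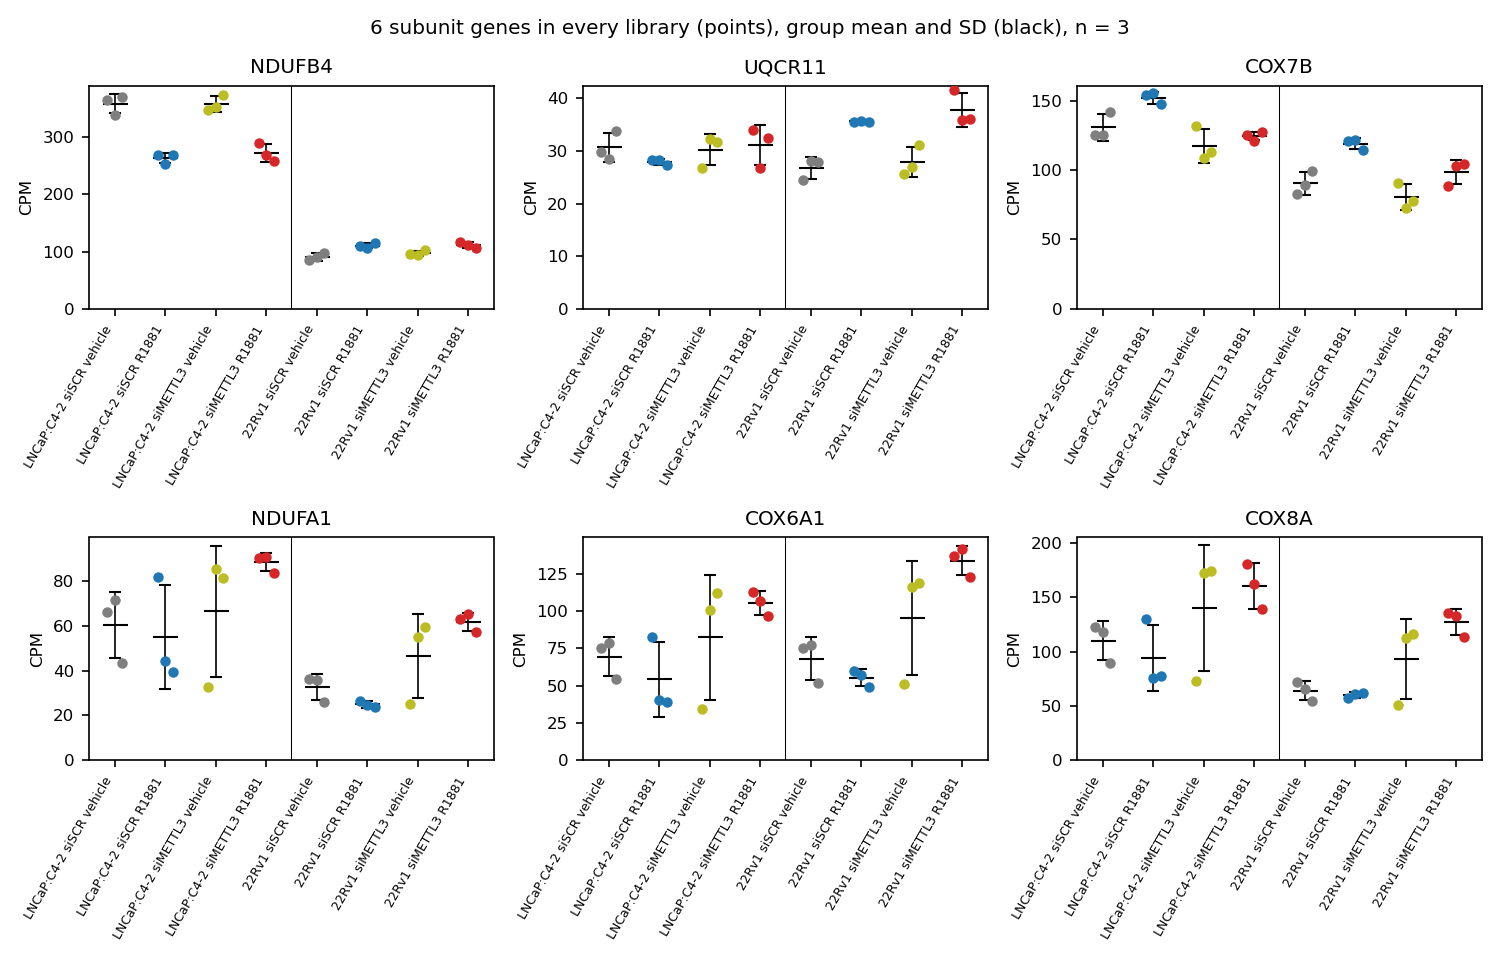
CPM (y axis) of NDUFB4, UQCR11, COX7B, NDUFA1, COX6A1 and COX8A in every library (points) of the 8 groups (x axis), with the group mean and SD in black, n = 3. NDUFB4 is lower with R1881 in LNCaP:C4-2 and higher in 22Rv1. Among the 22Rv1 groups, NDUFA1, COX6A1 and COX8A have their highest means with siMETTL3 and R1881 (57.4 to 65.3, 123 to 142 and 114 to 136 CPM). In LNCaP:C4-2 with siMETTL3 and R1881, NDUFA1 and COX8A are higher still (83.6 to 90.9 and 139 to 181 CPM).

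The dependence of the R1881 response on METTL3 was tested as an interaction in each line, and no subunit gene was called. In LNCaP:C4-2, 0 of 59 were higher or lower, and the share of all genes called was 0 in both directions and at the fold change of 1.5. At an unadjusted p under 0.05, edgeR gave 0 in both directions, beside 987 higher and 1050 lower of all 16435 genes. DESeq2 called 0, beside 0.118% of all genes higher and 0.273% lower. With edgeR, 45 of 59 estimates were positive with a median of 0.12. In the fit without the 6 libraries, 18 were positive, the median was -0.07 and 0 were called. In 22Rv1, 0 of 59 were higher (0 of all genes) and 0 lower (0.0168%, the same share at the fold change of 1.5). Here 12 genes were higher and 0 lower at an unadjusted p under 0.05, beside 618 and 483 of all 17865 genes. DESeq2 called 0, beside 0.0056% of all genes higher and 0.0168% lower. With edgeR, 52 of 59 estimates were positive with a median of 0.15. Without the libraries that stand apart 6 were called higher. The larger number of genes called for R1881 with siMETTL3 than with siSCR in 22Rv1 is therefore not shown to be a difference in response.

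Between the lines, the subunit genes as a set were lower in 22Rv1. Summed over complex I, the level was 1784 ± 159 CPM per kb in LNCaP:C4-2 and 1078 ± 129 in 22Rv1 (SD over 12 libraries of 4 conditions). For complex II the sums were 129 ± 5.18 and 86.8 ± 7.23 CPM per kb, for complex III 856 ± 96.1 and 599 ± 75.5, and for complex IV 1157 ± 183 and 880.2 ± 168. With siSCR and vehicle, NDUFB4 was at 366, 339.9 and 371 CPM in LNCaP:C4-2 and at 84.6, 90.5 and 98.1 CPM in 22Rv1, which was the largest difference. The log2 fold change of 22Rv1 against LNCaP:C4-2 was -1.98 (SE 0.08, adjusted p = 2.20e-18, edgeR over 19437 genes). NDUFS5 was at 176, 182 and 178 CPM and at 64.4, 65.3 and 68.9 CPM (-1.43, SE 0.08, adjusted p = 1.43e-14). NDUFS6 (-1.32) and NDUFA8 (-1.27), accessory subunits of complex I, and COX5A (-1.13) of complex IV completed the 5 largest. NDUFS6 was at 75.4, 78.8 and 63.6 CPM in LNCaP:C4-2 and at 34, 31.5 and 21.9 CPM in 22Rv1. NDUFA8 was at 82.5, 77.8 and 72 CPM and at 33.5, 32.8 and 29.9 CPM, and COX5A at 221, 227 and 219.6 CPM and at 108, 108 and 89.4 CPM. The groups of the 2 lines did not overlap in any of the 5 genes.

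NDUFA13, an accessory subunit of complex I, and NDUFS1, its largest core subunit, went the other way. NDUFS1 was at 208, 202 and 228 CPM in LNCaP:C4-2 and at 257, 291 and 316 CPM in 22Rv1 (0.44, SE 0.07, adjusted p = 8.5e-06, edgeR). NDUFA13 was at 3.59, 2.52 and 2.43 CPM and at 5.41, 4.39 and 3.71 CPM (0.66, SE 0.23, adjusted p = 0.011), low values with groups close to each other. In total 39 of 59 were lower (36% of all genes), 2 higher (37.9%), and 27 passed the fold change of 1.5 in either direction (59.2%). By complex, 23 of 36, 3 of 4, 7 of 9 and 6 of 10 were lower. The median log2 fold change was -0.53, beside 0.03 over all genes. With the size factors of relative log expression the median of all genes moved to 0.12 and that of the set to -0.45, and with library totals alone to 0.18 and -0.39. The call of NDUFS1 was lost with an offset for GC content (0.11, adjusted p = 0.0865, edgeR), and that of NDUFA13 without 22Rv1 replicate 1 (0.54, 0.0596).

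With siSCR and R1881, 43 of 59 were lower in 22Rv1 (35% of all genes), 3 higher (40%) and 28 past the fold change of 1.5 (60.1%), with a median of -0.54 beside 0.09 over all genes. NDUFB9 (-1.48), NDUFV2 (-1.28), SDHA (-1.26), NDUFB4 (-1.26) and NDUFS5 (-1.19) had the largest differences. SDHA, the flavoprotein of complex II that oxidises succinate, was at 339.5, 264 and 255 CPM in LNCaP:C4-2 and at 119.8, 118 and 119.8 CPM in 22Rv1. NDUFB9, an accessory subunit of complex I, was at 107, 83.5 and 92.1 CPM and at 28.9, 33.2 and 39.4 CPM. NDUFV2 was at 4.74, 3.94 and 6.07 CPM and at 1.94, 2.17 and 1.97 CPM, and NDUFS5 at 201, 179.5 and 191 CPM and at 76.7, 86.4 and 87.7 CPM. The lines did not overlap in any of these. NDUFA13 (1.05), NDUFS1 (0.46, and 0.09 with the GC offset, where it was not called) and UQCR11 (0.35) were higher in 22Rv1. NDUFA13 was at 2.84, 2.13 and 2.01 CPM in LNCaP:C4-2 and at 6.03, 4.34 and 4.04 CPM in 22Rv1, and NDUFS1 at 208, 222 and 222 CPM and at 285, 295 and 316 CPM. Without the libraries that stand apart, 44 genes were lower and 2 higher with vehicle, and 48 lower and 3 higher with R1881. The plot of the 2 lines shows the vehicle groups.

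**Figure D5:**
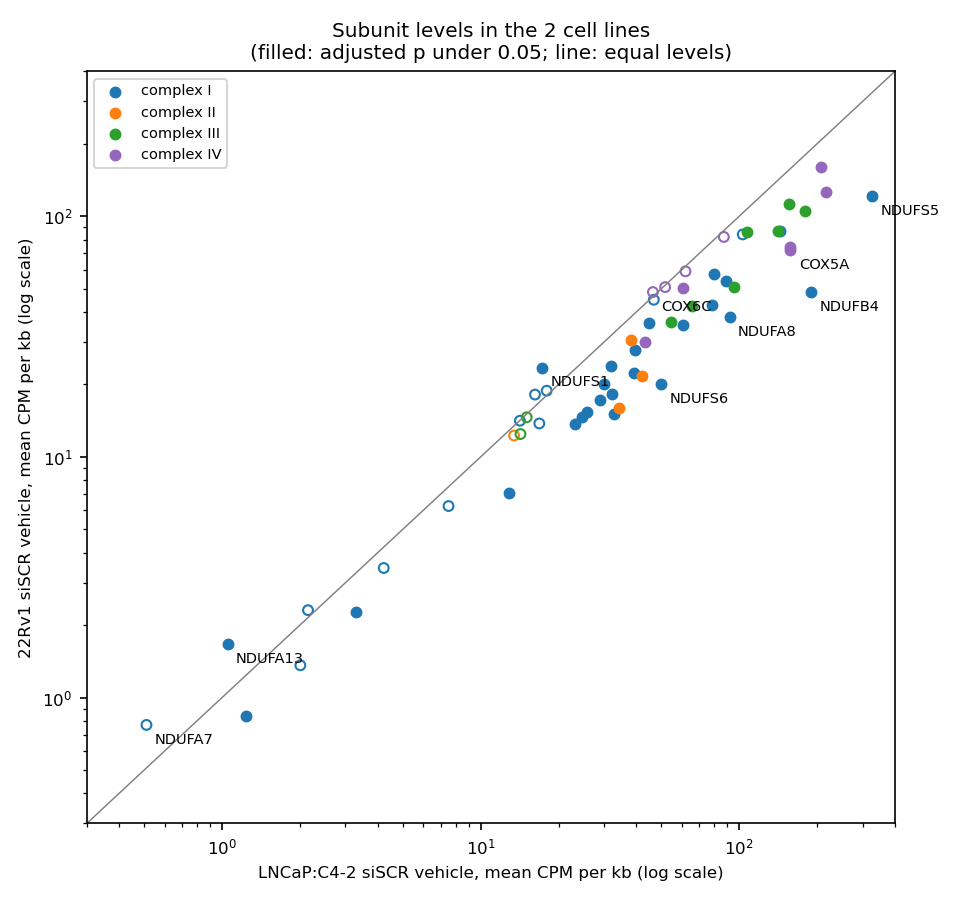
Mean CPM per kb of each of the 59 subunit genes with siSCR and vehicle in LNCaP:C4-2 (x axis) and 22Rv1 (y axis), both on log scales, with filled points for genes at an adjusted p under 0.05 and a line of equal levels. Most points lie below the line: 39 genes were called lower and 2 higher in 22Rv1.

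The R1881 response itself differed between the lines in 2 subunit genes. Of the 59, 2 had a higher response in 22Rv1 (7.78% of all genes), 0 a lower one (9.02%), and 1 passed the fold change of 1.5 (12.4%). NDUFB4 had a difference of 0.72 on the log2 scale (SE 0.10, adjusted p = 1.25e-05, edgeR), since it fell in LNCaP:C4-2 and rose in 22Rv1. UQCR11 had a difference of 0.55 (SE 0.15, adjusted p = 0.0122). It was at 29.8, 28.5 and 33.7 CPM with vehicle and at 28.3, 28.3 and 27.3 CPM with R1881 in LNCaP:C4-2, where the groups were close together, while it rose in 22Rv1. Without the libraries that stand apart the differences were 0.70 and 0.47, with only siSCR R1881 replicate 1 left in that group of LNCaP:C4-2. In 22Rv1 that fit set vehicle libraries above 0 on the GC slope against R1881 libraries below 0, so treatment and GC slope cannot be told apart there. The call of UQCR11 was lost without LNCaP:C4-2 siSCR vehicle replicate 3 (0.45, adjusted p = 0.0548, edgeR) or 22Rv1 siSCR vehicle replicate 1 (0.47, 0.0514), and without 22Rv1 siSCR R1881 replicate 3 there were 2 higher and 3 lower. The knockdown effect with vehicle differed between the lines in 0 of 59 genes, whether higher (0.0875% of all genes), lower (0.37%) or past the fold change of 1.5 (0.432%). At an unadjusted p under 0.05, 0 were higher and 1 lower, beside 865 and 1375 of all 19437 genes. DESeq2 called 0, beside 0.573% of all genes higher and 1.3% lower. The same count was 0 without the 6 libraries. The 4 comparisons within a line share groups with each other, and those between lines share them with the comparisons within lines.

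No gene was called in the same direction in more than 3 of the 8 comparisons of 2 groups within a line. COX5A, COX7A2 and NDUFA12 were each called higher in 3. COX7A2 was the one that rose with R1881 in siSCR cells of both lines, at 116, 123 and 119 CPM with vehicle and 148, 150.4 and 144 CPM with R1881 in LNCaP:C4-2, and at 106, 110.0 and 124 CPM and 128, 128 and 138 CPM in 22Rv1. Its groups did not overlap in either line, but both calls depended on the fit. In LNCaP:C4-2 the call was lost with library totals alone, with no filter and with the GC offset, and it was kept in 4 of the 6 fits that left out 1 library (adjusted p up to 0.0713, edgeR). In 22Rv1 it was lost with library totals alone, with either of the other filters, with the GC offset, with both offsets and with only the libraries compared. In siMETTL3 cells of 22Rv1, COX5A was at 102, 103 and 108 CPM with vehicle and at 132, 139.8 and 126 CPM with R1881. COX7A2 was at 105, 114 and 119 CPM and at 143, 149 and 142 CPM, and NDUFA12 at 35.4, 39.3 and 42.7 CPM and at 54.5, 52.9 and 52.6 CPM. Each R1881 library was above all vehicle libraries in these 3 genes.

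Other genes of the pathway were examined as lists, all chosen with earlier results known. Of the 13 mitochondrially encoded subunits in 22Rv1, 0 rose and 11 fell with R1881 in siSCR cells (median -0.33), beside 16.5% of all genes that fell. In siMETTL3 cells 0 rose and 12 fell with R1881 (median -0.56), beside 16.3%. With siMETTL3 against siSCR in R1881, 0 rose and 6 fell (median -0.29), beside 7.28%. In these comparisons 13, 10 and 11 fell without the 6 libraries, and 1 rose in the last. Under the alternative fits the last count ranged from 3 to 11 lower and from 0 to 1 higher. The siMETTL3 vehicle library that stands apart was far above the other 2 of its group, with 63449 CPM per kb summed over these subunits against 41103 and 43146. MT-ND4, a core subunit of complex I, was at 8097, 5128 and 4637 CPM in siMETTL3 vehicle and at 3642, 3928 and 3672 CPM in siMETTL3 R1881, and had log2 fold changes of -0.41 (adjusted p = 0.0219, edgeR) and -0.69 (0.000393) with R1881 in siSCR and siMETTL3 cells of 22Rv1. MT-CO1, the catalytic subunit of complex IV, fell by 0.49 with siMETTL3 in R1881 (adjusted p = 0.00798, edgeR). In the same libraries the share of all counts on mitochondrially encoded genes was 4.96% to 5.28% with siSCR R1881 and 3.93% to 4.24% with siMETTL3 R1881, against 6.12% to 6.89% with siSCR vehicle and 5.04% to 7.45% with siMETTL3 vehicle, where the libraries that do not stand apart were at 5.27% and 5.04%. In LNCaP:C4-2 no mitochondrially encoded subunit was called in the comparisons within the line. Without the 6 libraries, 2 fell with R1881 in siSCR cells, 1 rose with R1881 in siMETTL3 cells and 6 fell with siMETTL3 in vehicle. Between lines, 7 of 13 were lower in 22Rv1 with vehicle (36% of all genes) and all 13 with R1881 (35%).

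Of the 15 nuclear subunits of ATP synthase in 22Rv1, 2 rose and 1 fell with R1881 in siSCR cells, beside 16.6% and 16.5% of all genes. In siMETTL3 cells 9 rose and 0 fell with R1881 (16.8% and 16.3%), and 7 rose and 0 fell with siMETTL3 in R1881 (8.93% and 7.28%). The corresponding counts without the 6 libraries were 6, 9 and 10 higher and 2, 0 and 0 lower. ATP5ME (1.04, adjusted p = 0.00427, edgeR) and ATP5MF (0.65, adjusted p = 0.00507), small membrane subunits, had the largest values in the latter. Against LNCaP:C4-2, 10 of 15 were lower (36% of all genes) and 1 higher (37.9%) with vehicle, led by ATP5MC3 (-1.42) of the c-ring. Of the 16 genes of pyruvate dehydrogenase and the tricarboxylic acid cycle, 12 were lower and 1 higher in 22Rv1 with vehicle, against the same shares of all genes, led by OGDH (-1.75) of the oxoglutarate dehydrogenase complex and DLD (-1.62), which several dehydrogenase complexes share. Of the 44 assembly factors, 20 (45.5%) were lower and 12 (27.3%) higher between lines with vehicle, beside 36% and 37.9% of all genes. Within 22Rv1, 8 (18.2%) rose and 1 (2.27%) fell with siMETTL3 in R1881, beside 8.93% and 7.28%, led by UQCC3 (1.08, adjusted p = 0.0024, edgeR), an assembly factor of complex III. The fit without the 6 libraries gave 18 and 1. UQCC3 was at 8.55 CPM in the 22Rv1 siMETTL3 vehicle library that stands apart and at 17.3 and 17.2 CPM in the others of its group.

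Among 12 regulators, NRF1 fell with R1881 in LNCaP:C4-2. It was at 31.3, 32.9 and 32.1 CPM with vehicle and at 19, 18.5 and 18.7 CPM with R1881 in siSCR cells (log2 fold change -0.78, SE 0.11, adjusted p = 0.000101, edgeR), and fell by 0.92 in siMETTL3 cells (adjusted p = 2.56e-05). In 22Rv1 it was at 33.3, 34.2 and 37.3 CPM and at 38.2, 39.3 and 40.8 CPM, and the responses of the lines differed by 0.95 (SE 0.13, adjusted p = 7.96e-06). Of the 7 subunit genes with the NRF1 core in their window, 1 (NDUFB4) fell with R1881 in siSCR cells of LNCaP:C4-2 and 0 rose. A relation between the level of NRF1 and these genes was not tested. The coactivator PPARGC1A was higher in 22Rv1 by 1.57 with vehicle and by 2.40 with R1881. Of 8 tissue-restricted or alternative subunit isoforms, 2 passed the filter on low counts. NDUFA4L2 was lower in 22Rv1, with log2 fold changes of -2.05 with vehicle and -3.02 with R1881. In LNCaP:C4-2 it was higher with siMETTL3 in vehicle (1.32, adjusted p = 0.021, edgeR). There it was also higher with R1881 in siSCR cells (0.82, 0.0281), although the libraries overlapped. Its knockdown effect with vehicle differed between lines by -1.41 (adjusted p = 0.0255, edgeR). COX7A2L, a factor for supercomplexes of complexes III and IV, rose with R1881 in 22Rv1 by 0.54 (siSCR) and 0.59 (siMETTL3).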

How the data were processed

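The authors deposited raw counts of fragments per gene for each of the 24 libraries, in 1 table per library. Per the file headers the counts were made with featureCounts 1.5.0-p1 on paired reads with Ensembl gene models on GRCh38, with no strand option, so fragments lying on more than 1 gene were dropped. The labels name Trim Galore, cutadapt, FastQC and STAR as further tools. The deposited exon length per gene was used for levels per kb.

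Counts of each cell line (12 libraries; all 24 for comparisons between lines) were fitted in R 4.3.3 with the quasi-likelihood test of edgeR 4.0.16 (limma 3.58.1), with trimmed mean of M values scaling, a mean per group, and the filterByExpr filter (minimum count 10, total 15). P-values were adjusted by the Benjamini-Hochberg method over all genes tested. A gene was called at an adjusted p under 0.05, and a second count also asked for a fold change of 1.5. SEs were derived from the log2 fold change and the F statistic. CPM were computed from the counts on scaled library sizes over all 24 libraries. All 59 subunit genes passed the filter in each fit. The alternatives were DESeq2 1.42.0, 2 other scalings, 2 other filters, offsets for GC content and gene length, a replicate block, only the libraries compared, and leaving out libraries. The fits were tested on simulated data. Per-library values are given for METTL3, for the up to 5 called genes with the largest log2 fold changes in each direction, for genes called most often, and as the lowest and highest library of a line for the highest and lowest genes of each complex, and up to 2 genes are named from each other list. Further subunit genes may be named. The genes and lists were chosen with earlier results of these data known.

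Replicate numbers did not pair the libraries: same-numbered libraries had a median correlation of deviations of 0.01 in LNCaP:C4-2 and -0.01 in 22Rv1 and exceeded 0.1 in 2 and 1 of 18 pairs. No 2 libraries of a group were duplicates, with chi-square values per gene of 2.21 to 41.7. No column of the tables was left out of the mapping, and 1 assembly factor could not be matched by symbol. Some marker genes are not reported here.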

Additional observations from a re-analysis of the deposited data

Results flagged for a closer look

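The R1881 response with siSCR differed between LNCaP:C4-2 and 22Rv1 in 2 subunit genes, by a test of the difference itself (edgeR interaction of line and treatment over 19437 genes). For NDUFB4 the difference was 0.72 on the log2 scale (SE 0.10, adjusted p = 1.25e-05), with a response of -0.45 in LNCaP:C4-2 and 0.27 in 22Rv1, and it was called in all 12 fits that left out 1 library. For UQCR11 the difference was 0.55 (SE 0.15, adjusted p = 0.0122), called in 10 of 12 such fits.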

How the results depend on the processing

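The counts of subunit genes called depended on the fit. The share of all genes called also differed between fits and is not given beside the counts below. Over 42 results for named subunit genes and 726 alternatives, 663 kept their call, 63 lost it and 0 reversed. These genes were picked in the same data as the called genes with the largest log2 fold changes. The share that kept a call therefore does not hold for called genes in general. The settings that used the GC and length offsets together, and those without the 6 libraries that stand apart, were chosen after seeing the data. The cause of each change below was not tested unless stated.

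For R1881 in siSCR cells of LNCaP:C4-2 (5 genes called), DESeq2 called 8, library totals alone 2, the fit without the 6 libraries 9, and leaving out 1 library 1 to 5. With siMETTL3 (2 called), the count was 1 with library totals alone, the replicate block or only the libraries compared, 5 with the GC offset, 6 with both offsets or without the 6 libraries, 7 with no filter, and 1 to 3 leaving out 1 library. For siMETTL3 with vehicle (0), it was 1 with both offsets, 4 without the 6 libraries and 0 to 2 leaving out 1 library. For siMETTL3 with R1881 (0), it was 5 with DESeq2, 11 with no filter, 1 with either offset or both, 9 with only the libraries compared and 0 to 14 leaving out 1 library. The interaction (0) gave 1 with no filter.

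In 22Rv1, R1881 with siSCR (10) gave 16 with the length offset, 17 with the GC offset, 16 with both, 32 without the 6 libraries and 4 to 24 leaving out 1 library. R1881 with siMETTL3 (26) gave 17 to 29 leaving out 1 library. For siMETTL3 with vehicle (0), the count was 1 with DESeq2, the GC offset or both offsets, 7 with no filter, 17 without the 6 libraries and 0 to 16 leaving out 1 library. For siMETTL3 with R1881 (29) it was 16 to 23 leaving out 1 library. The interaction (0) gave 6 with no filter and 6 without the 6 libraries. The difference between lines in the R1881 response (2) gave 6 with DESeq2, 4 with other size factors, the stricter filter or the GC offset, 5 with both offsets, 17 without the 6 libraries and 2 to 5 leaving out 1 library.

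Asking also for a fold change of 1.5 can only lower a count, and left 0 of 5, 0 of 2, 0 of 10, 2 of 26, 11 of 29, 27 of 41, 28 of 46 and 1 of 2 in the comparisons with any call.

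The drop of METTL3 in LNCaP:C4-2 kept its sign and lost its call with vehicle in only the libraries compared (-0.61, adjusted p = 0.054, edgeR) and with R1881 under the replicate block (-0.57, 0.0706) and without the 6 libraries (-0.43, 0.0865). Leaving out 1 library gave -0.66 to -0.55 and -0.65 to -0.52, with calls lost in 3 and 5 of 6 fits. In 22Rv1 it was called in all of these.

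The numbers of the libraries are not a stated pairing: 7 of 24 libraries correlated best with their own number. The fit with the replicate block called 27 higher and 1 lower for siMETTL3 with R1881 in 22Rv1. A fit of only the libraries compared gives no separate value for the interactions, which use all libraries of a line.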
